A study of Sus scrofa with 41 samples.

Results

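The share of the counts on genes that fell on 6 mitochondrially encoded genes ran from 6.74% to 23.5% in the psoas major muscles of 41 pigs, and the nuclear genes of the muscles at either end of that range were compared here. All animals were intact males, 13 of the Danbred Duroc breed and 28 of the Danbred Landrace breed, fed ad libitum, and the muscle was placed in RNAlater straight after slaughter. The study was made to relate muscle expression to feed efficiency, so no group had a treatment, a genotype or an allele of its own, and 1 library was made per animal. At sampling the pigs were 131 to 166 days old, with 131 to 162 days in the high-share and 143 to 160 days in the low-share group. The share was the summed count of the 6 genes (COX1, COX2, COX3, ATP6, ND4 and CYTB) over all counts on genes, and the pigs were chosen by it: the 10 highest and the 10 lowest, 20 of 41 animals, with 21 in neither group. Because the share was read from the same libraries, its difference between the groups is a description and carries no test.

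Mitochondrial DNA is a small circle that is present in many copies per cell. It is transcribed as long polycistronic RNAs, from which tRNAs, rRNAs and the mRNAs of 13 respiratory chain subunits are cut, and the mRNAs then receive short poly(A) tails. The remaining respiratory chain subunits, and all proteins that replicate, transcribe and translate mitochondrial DNA, are encoded in the nucleus. In muscle, slow oxidative fibres hold more mitochondria than fast glycolytic fibres.

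The shares of the high-share pigs were 23.5% in Duroc 10, 22.6% in Landrace 27, 15.4% in Landrace 1, 15.2% in Duroc 13, 15.1% in Landrace 8, 13.9% in Duroc 2, 13.5% in Landrace 21, 13.3% in Landrace 2, 12.4% in Landrace 22 and 12.3% in Landrace 18. Those of the low-share pigs were 8.79% in Landrace 12, 8.44% in Landrace 3, 8.34% in Landrace 5, 8.24% in Duroc 1, 8.18% in Landrace 13, 7.92% in Landrace 6, 7.70% in Duroc 9, 7.05% in Landrace 14, 6.96% in Landrace 10 and 6.74% in Duroc 8. The first pigs outside the groups were Duroc 3 at 12.2%, next to the last high-share pig, and Landrace 9 at 9.28%, next to the first low-share pig. The groups were thus cut from a continuous range, in which 2 pigs with over 20% stood apart from the rest. Each group held 3 Duroc and 7 Landrace pigs.

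**Figure D1:**
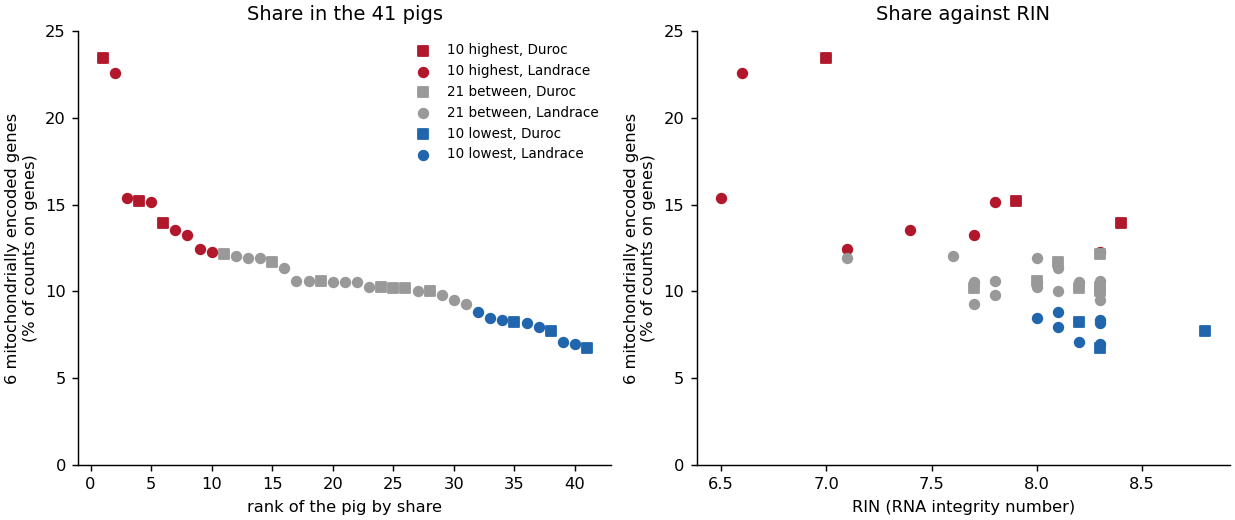
Left, the share of the 6 mitochondrially encoded genes in percent of the counts on genes, against the rank of each of the 41 pigs; right, the same share against RIN. Red points are the 10 highest pigs, blue the 10 lowest and grey the 21 between, with squares for Duroc and circles for Landrace; the 2 pigs above 20% have a RIN of 7.0 or less, and no low-share pig has a RIN below 8.0.

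All 13 mitochondrially encoded protein genes had more counts in the high-share pigs by their medians, also the 7 that were not used for the ranking. They are given on the scale of percent of counts on genes, with RefSeq coordinates on the mitochondrial sequence (MT) of Sscrofa11.1. COX1 (MT, 6511 to 8055), a core subunit of cytochrome c oxidase, took 2.53% to 5.06% (median 3.11%) of the counts in the high-share pigs and 1.33% to 1.90% (median 1.69%) in the low-share pigs. ATP6 (9120 to 9800), a subunit of the proton channel of ATP synthase, took 2.41% to 4.83% against 1.09% to 1.77%. CYTB (15342 to 16481), the mitochondrial subunit of complex III, took 1.37% to 2.68% against 0.725% to 0.965%. For these genes the groups do not overlap, as the rule that ranked the pigs leads to.

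Of the genes outside the rule, ND1 (3922 to 4876) took 0.929% to 2.14% against 0.438% to 0.729%, and ND2 (5087 to 6128) 1.12% to 2.29% against 0.580% to 0.889%. Both are core subunits of complex I. ND6 (14739 to 15266), a complex I subunit and the only one of the 13 proteins encoded on the opposite strand, took 0.345% to 0.841% against 0.107% to 0.279%. ND5 (12935 to 14755) took 0.631% to 1.53% against 0.451% to 0.634%, so its groups touched, and those of ND3, ND4L and ATP8 overlapped as well. The ratio of the group medians lay between 1.74 (CYTB) and 1.98 (ND6) for 11 of the 13 genes, and was 1.64 for ATP8 and 1.39 for ND4L. Both of these are short genes that overlap their neighbours ATP6 and ND4, and read pairs on 2 overlapping genes were not counted. Whether this bears on their ratios was not tested.

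The parts that the genes took of the 13-gene total are given as a description, with no test. COX1, ATP6 and COX3 each made up about the same part of the 13-gene total, with medians of 16.2%, 16.3% and 16.0% in the high-share pigs and 16.1%, 16.0% and 16.1% in the low-share pigs. The medians of ND4L were 0.251% against 0.331% and those of ATP8 0.318% against 0.356%. Per kilobase of gene and per 1000000 counts on genes, ATP6 had the highest median level in both groups, 45852 against 24545, followed by COX3 with 38012 against 21313 and COX2 with 33044 against 18266. ND5 stood at 5968 against 3032 on the same scale. The 24 identifiers without a symbol that lie in the same run of numbers as the 13 genes moved with them: together they took 1.26% to 5.20% of the counts in the high-share pigs and 0.518% to 1.35% in the low-share pigs. They were left out of the nuclear genes.

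**Figure D2:**
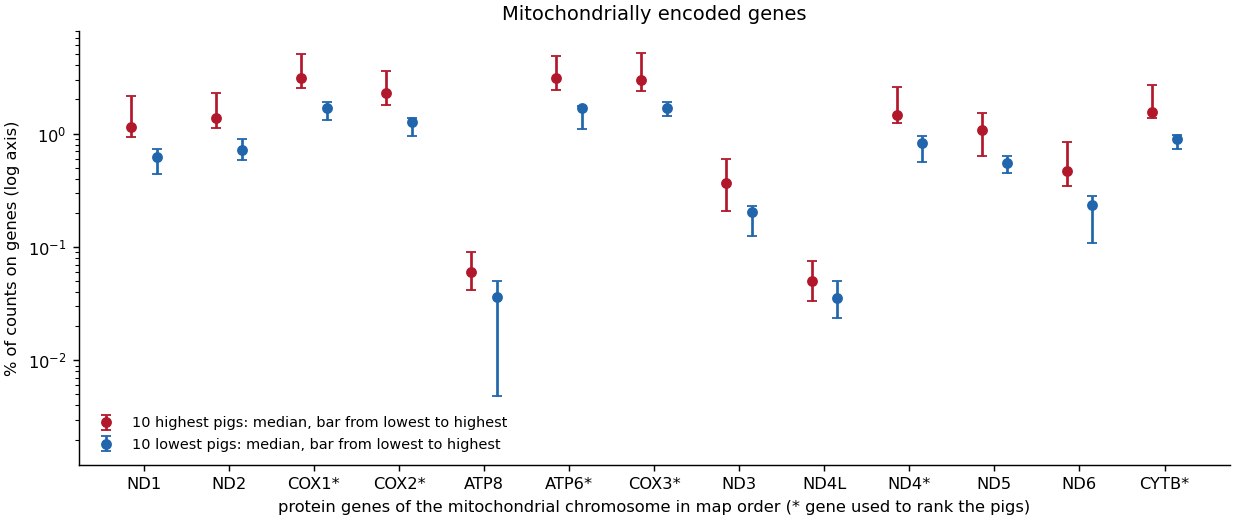
Percent of the counts on genes (log axis) for the 13 mitochondrially encoded protein genes in map order, in the 10 highest-share pigs (red) and the 10 lowest-share pigs (blue). Points are medians and bars run from the lowest to the highest pig; an asterisk marks the 6 genes that ranked the pigs, and ATP8, ND3, ND4L and ND5 are the genes whose bars overlap.

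RNA integrity moved with the share. The RNA integrity number (RIN) is a score from electrophoresis that falls as RNA breaks down. It was 7.47 ± 0.663 (SD, n = 10) in the high-share pigs and 8.26 ± 0.217 (SD, n = 10) in the low-share pigs. These means differed (two-sided permutation test, p = 0.00158, Benjamini-Hochberg adjusted p = 0.00474 over 3 labels). FCR, the feed conversion ratio, was 2.06 ± 0.126 against 2.03 ± 0.0802 (permutation test, p = 0.593, adjusted p = 0.593), and age was 152.5 ± 9.88 days against 150.0 ± 5.21 days (permutation test, p = 0.508, adjusted p = 0.593). Neither difference in means passed the 0.05 threshold. The breeds were split alike (Fisher's exact test, p = 1). RIN was also lower in the high-share pigs within batch 2, with means of 7.20 (2 pigs) and 8.20 (6 pigs), and within batch 3, with means of 7.93 (3 pigs) and 8.20 (3 pigs). Batch 5 held 4 high-share and no low-share pigs, batch 1 was 1 high-share pig, and batch 4 held 1 low-share and no high-share pig. The part of RIN and batch in the differences below cannot be fully told apart from that of the share.

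Over all 41 pigs the share fell with RIN (Pearson r = -0.70, permutation p = 5e-05, adjusted p = 0.00015; Spearman rho = -0.54, permutation p = 0.0003, adjusted p = 0.0009, over 3 relations). Without the 2 pigs farthest from the median RIN r was -0.59, and it was -0.62 within batch 2 (15 pigs), -0.56 within batch 3 (9 pigs) and -0.77 within batch 5 (11 pigs). With breed regressed out of both, r was -0.75 (permutation p = 1e-05, the smallest that the permutations can give). FCR had no such relation with the share (r = -0.05, permutation p = 0.777, adjusted p = 0.777; rho = 0.13, permutation p = 0.415, adjusted p = 0.415), and r was 0.17 without the 2 pigs of FCR farthest from the median. Within batches it was -0.17, 0.79 and -0.31 in batches 2, 3 and 5. Age gave r = 0.12 (permutation p = 0.458, adjusted p = 0.687; rho = 0.26, permutation p = 0.0968, adjusted p = 0.145), 0.32 without the 2 pigs farthest in age, and -0.27, 0.31 and -0.07 in the same batches. After RIN and breed were regressed out, r was -0.09 for FCR (permutation p = 0.566, adjusted p = 0.642) and 0.08 for age (permutation p = 0.642, adjusted p = 0.642).

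By breed the share was 11.6% ± 4.28 (SD, n = 13) in Duroc and 11.0% ± 3.14 (SD, n = 28) in Landrace. This difference in means did not pass the 0.05 threshold (two-sided permutation test, p = 0.652). Duroc minus Landrace means were 2.08 and 0.44 percentage points in batches 2 and 5, and -1.81 and -1.84 percentage points in batches 3 and 4. With RIN regressed out the Duroc mean was 1.92 percentage points higher (permutation test, p = 0.0254).

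Counts on genes were 22188911 to 25845886 per high-share pig and 24998329 to 25853287 per low-share pig, and 17174278 to 22241203 against 22938688 to 24111240 without the 6 genes. The read pairs that aligned outside any gene were 7.91% to 16.2% of all pairs in the high-share pigs and 7.53% to 8.94% in the low-share pigs. All libraries held the markers of skeletal muscle: ACTA1, the skeletal actin, stood at 86454 to 164940 CPM (counts per 1000000) and CKM, the muscle creatine kinase, at 20322 to 35396 CPM. CPM of nuclear genes leaves the 6 genes out of the library size and is TMM-scaled. The other mitochondrial protein genes and the 24 identifiers without a symbol in their run stayed in the library size. A larger mitochondrial pool therefore lowers CPM as far as TMM scaling does not offset it. The animals are separate, so the n of 10 per group counts biological replicates.

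With RIN and breed adjusted, 165 of the 10989 nuclear genes tested differed between the groups (edgeR's quasi-likelihood test, false discovery rate (FDR) under 0.1 after Benjamini-Hochberg adjustment), which is 1.5% of them. Of these genes 66 were higher (0.601%) and 99 lower (0.901%) in the high-share pigs. At an unadjusted edgeR p under 0.05 were 7.89% of all genes on the higher and 7.78% on the lower side. DESeq2 called 2.48% of all genes higher and 3.17% lower, and limma with voom 0.728% and 1.14%. Changes in the higher genes were small, with log2 fold changes from 0.30 to 1.86 and a median of 0.48, and those in the lower genes were larger, from -2.17 to -0.41 with a median of -0.96. Only 5 of the 165 genes had an FDR under 0.05. Among all genes tested the CPM of the 2 groups did not overlap for 36 genes (0.328%), and 10 of the 165 called genes were of this kind.

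The calls rested on a small margin. Leaving out 1 pig at a time gave 3 calls without Landrace 6 and 335 without Duroc 8, and with batch as a further term 10 genes were called (3 higher, 0.0273%, and 7 lower, 0.0637%), of which 8 were among the 165. With library size alone in place of TMM scaling there were 1 higher and 37 lower genes, and this scaling moved the median of all genes from 0.01 to -0.08 on the log2 scale. More genes were higher than lower without Duroc 8 (195 and 140), with the ratio as a number in 41 pigs (386 and 249) and with pigs ranked by the adjusted share (5 and 0), so the balance of directions depends on the processing.

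The genes that were lower in the high-share pigs included, among those of smallest p, several that are known from macrophages and innate immune signalling. MYD88 (ENSSSCG00000011251, chromosome 13, 22976951 to 22979568), the adaptor that carries Toll-like receptor signals, stood at 3.07 to 5.56 CPM (median 4.27) in the high-share pigs and 5.92 to 8.42 CPM (median 6.93) in the low-share pigs. Every high-share pig was below every low-share pig, and the log2 fold change was -0.92 ± 0.12 (SE, edgeR, FDR = 0.00226). CSF1R (ENSSSCG00000014441, chromosome 2, 151102138 to 151130311), the receptor by which macrophages receive their survival signal, stood at 1.40 to 8.09 CPM (median 5.07) against 9.83 to 22.5 CPM (median 12.8), again without overlap (log2 fold change -1.56 ± 0.28, edgeR FDR = 0.0431). Its ligand CSF1 (chromosome 4, 110178466 to 110198232) stood at 4.41 to 13.9 CPM (median 6.65) against 8.96 to 28.5 CPM (median 16.7), and 8 of 10 high-share pigs were below all low-share pigs (log2 fold change -1.58 ± 0.29, edgeR FDR = 0.0456).

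CD163 (chromosome 5, 63300200 to 63334497), the haemoglobin scavenger receptor of tissue macrophages, stood at 2.57 to 12.5 CPM (median 7.47) against 12.1 to 29.1 CPM (median 22.2), a log2 fold change of -1.52 ± 0.29 (edgeR FDR = 0.0567). The groups touched in 1 pig each way. The direction of CD163 and of IRF5, a transcription factor of macrophage activation, turned when only the 8 pigs of batch 2 were fitted (0.17 and 0.092 on the log2 scale against -1.52 and -1.32). STAB1, another scavenger receptor of macrophages, fell by 0.99, F13A1, the coagulation factor XIII subunit that tissue macrophages make, by 2.12 and NFKBIZ, an inducible regulator of NF-kappa-B targets, by 1.73 on the log2 scale. F13A1 rested on few counts, from 7 to 363 per pig, and NFKBIZ on 7 to 133. The other lower genes of smallest p were DPT (-0.91 ± 0.18), a protein of the extracellular matrix, EFHD2 (-0.88 ± 0.18), an actin-binding protein of immune cells, SLC1A5 (-1.15 ± 0.24), a glutamine transporter, and GSN (-1.07 ± 0.22), the actin-severing protein gelsolin, each with an edgeR FDR of 0.0567. GSN was the most abundant of them, at 168 to 520 CPM (median 296) against 413 to 662 CPM (median 510). Without RIN EFHD2 was at -0.31 and was not called (edgeR FDR = 0.214). Of the 99 lower genes 82 were called lower without RIN, where 14.1% of all genes were.

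The leukocyte markers were mostly on the lower side. Of 22 markers in the files 15 were expressed highly enough to be tested, of which 14 had a negative log2 fold change and 3 were called (CSF1R, CD163 and CD14, edgeR FDR = 0.0917), all lower, where 0.901% of all genes were called lower. With batch added none of the 15 was called (CSF1R at edgeR FDR = 0.133, CD163 at edgeR FDR = 0.153). The median log2 fold change of the list was -0.76, against 0.01 over all genes tested. The summed level of the 22 markers was 21.7 to 91.8 CPM (median 53.9) in the high-share pigs and 57.4 to 118.8 CPM (median 100.1) in the low-share pigs, and none of them was at 0 in all 20 pigs. FCER1G, the common signalling chain of Fc receptors, stood at 3.46 to 18 CPM against 6.07 to 15.2 CPM and was not called (log2 fold change -0.70 ± 0.25, edgeR FDR = 0.181). In bulk tissue, fewer cells of a type and less RNA per cell cannot be told apart. When RIN was left out of the model the median of the list was -0.18. The direction of the median turned within batch 2 (0.79) and in the 21 pigs of neither group (0.28 per doubling of the mitochondrial to nuclear ratio). With that ratio as a number in all 41 pigs it was -0.08, and no leukocyte marker was called by edgeR.

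The matrix genes had the same sign. All 12 fibroblast and matrix markers tested, of 13 in the files, had a negative log2 fold change, with a median of -0.97, and 1 of them, DPT, was called by edgeR, where 0.901% of all genes were called lower. COL5A1, a fibril-forming collagen, stood at 8.89 to 42.4 CPM (median 22.7) in the high-share pigs and at 43.5 to 107 CPM (median 74.9) in the low-share pigs. These values do not overlap, yet after RIN adjustment the gene was not called (log2 fold change -1.36 ± 0.39, edgeR FDR = 0.115). COL3A1, the collagen of reticular fibres, stood at 174 to 1005 CPM against 740 to 1733 CPM (log2 fold change -1.03 ± 0.36, edgeR FDR = 0.173). COL1A1, the main collagen of tendon and fascia, stood at 168 to 10488 CPM against 396 to 2349 CPM (log2 fold change -0.77 ± 0.88, edgeR FDR = 0.726), and its highest value belonged to the high-share pig Landrace 22. The summed markers were 724 to 13998 CPM in the high-share pigs and 1915 to 6061 CPM in the low-share pigs. Without Landrace 22 the highest sum among the high-share pigs was 2745 CPM, and 3 of the 12 markers were then called lower, with a median of -1.13, where 1.63% of all genes were called lower in the same fit. The part of leukocyte and matrix cells in the other differences was not tested.

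The genes that were higher in the high-share pigs were of mixed function among those of smallest p. CCNB1IP1 (ENSSSCG00000002144, chromosome 7, 78553680 to 78576057), a ubiquitin ligase that acts on cyclin B and in meiotic recombination, stood at 10.2 to 19.0 CPM (median 13.0) against 6.02 to 8.84 CPM (median 7.14). Every high-share pig was above every low-share pig, and the log2 fold change was 0.87 ± 0.14 (edgeR FDR = 0.0182). SMIM19 (chromosome 17, 11549907 to 11566898), a small membrane protein, did not overlap either, at 21.8 to 34.7 CPM against 14.7 to 19.7 CPM (log2 fold change 0.44 ± 0.09, edgeR FDR = 0.059). VPS37A (0.65 ± 0.12, edgeR FDR = 0.0431), a subunit of the ESCRT-I sorting complex, and RAB28 (0.70 ± 0.14), a small GTPase, belong to vesicle transport, and DENR (0.42 ± 0.09) is a factor of translation re-initiation. MLLT11 had the largest change of these genes, 1.51 ± 0.30, from 2.66 to 7.03 CPM in the low-share pigs to 4.26 to 22.1 CPM in the high-share pigs. OSBPL1A (0.47 ± 0.10), a lipid-binding protein, PPP1CC (0.52 ± 0.11), a catalytic subunit of protein phosphatase 1, MRFAP1 (0.41 ± 0.09), GPX8 (0.53 ± 0.11), a peroxidase of the endoplasmic reticulum, and ZNF641 (0.64 ± 0.15) were called with an edgeR FDR between 0.0567 and 0.0715. Some calls rested on the RIN adjustment. Without RIN OSBPL1A was at 0.09 (edgeR FDR = 0.638), DENR at 0.19 (edgeR FDR = 0.128) and PPP1CC at 0.20 (edgeR FDR = 0.227). OSBPL1A stood at 15.6 to 37.7 CPM (median 27.6) against 21.1 to 28.8 CPM (median 25.5). Of the 66 higher genes 46 were called higher without RIN, where 17.7% of all genes were.

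**Figure D3:**
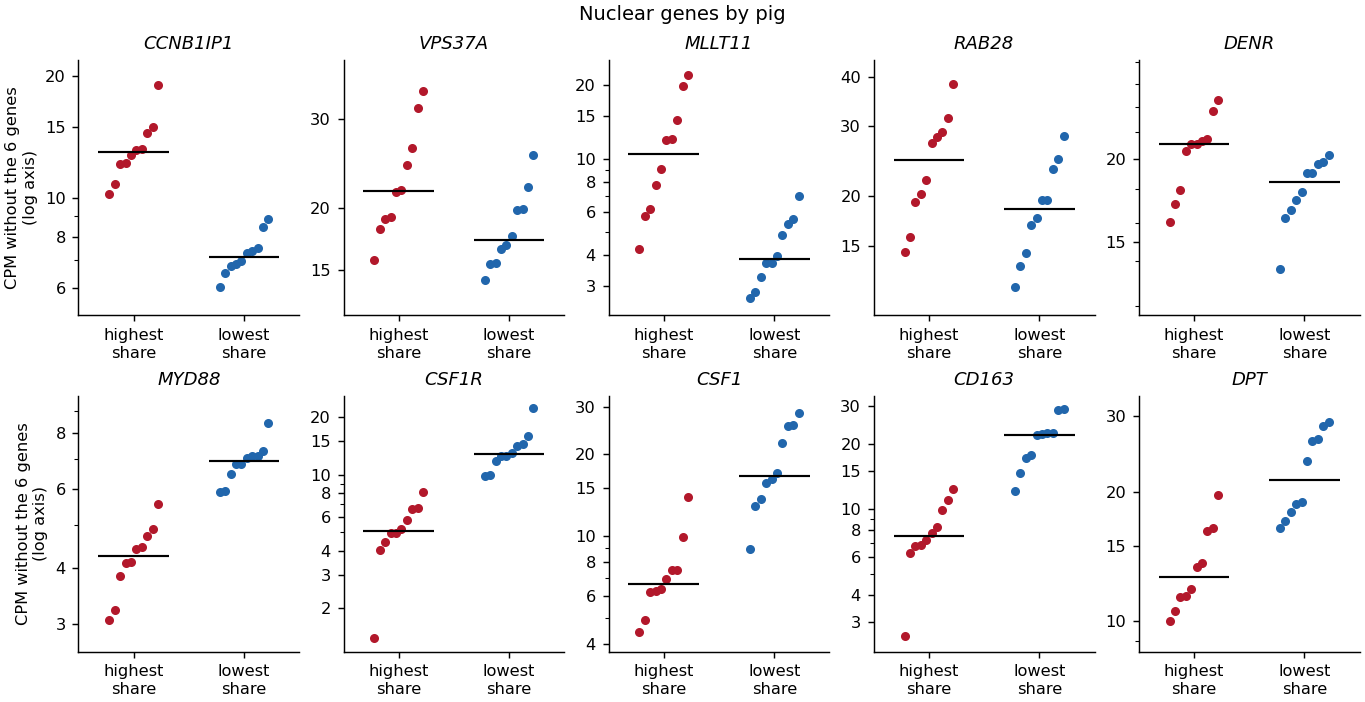
CPM without the 6 mitochondrial genes (log axes) in each of the 10 highest-share pigs (red) and the 10 lowest-share pigs (blue) for the 5 higher and the 5 lower called genes of smallest p; points are pigs in order of level and black lines are medians. CCNB1IP1, MYD88 and CSF1R show no overlap between the groups, while VPS37A and RAB28 each have 3 high-share pigs above all low-share pigs.

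The 16 lists of mitochondrial and antioxidant genes together held 5 genes called by edgeR among 356 tested, all higher, where 0.601% of all genes were called higher, and none with batch added. PRDX3 (chromosome 14, 129079050 to 129090790), the peroxiredoxin of the mitochondrial matrix, stood at 146 to 189 CPM against 108 to 152 CPM, with 6 high-share pigs above all low-share pigs (log2 fold change 0.42 ± 0.09, edgeR FDR = 0.0698). SUCLG2, the subunit that makes succinyl-CoA synthetase use GDP, stood at 55.7 to 120.2 CPM against 52.7 to 102 CPM (0.47 ± 0.11, edgeR FDR = 0.0799). NDUFAF6, an assembly factor of complex I, stood at 10.7 to 16.1 CPM against 7.52 to 12.4 CPM (0.46 ± 0.12, edgeR FDR = 0.0926). DNAJC19, a co-chaperone of the import motor of the inner membrane, stood at 22.6 to 35.1 CPM against 19.2 to 26.3 CPM (0.40 ± 0.11, edgeR FDR = 0.0926). MTRES1, a mitochondrial RNA-binding protein that sustains transcription under stress, stood at 26.4 to 41.0 CPM against 20.3 to 28.5 CPM (0.46 ± 0.12, edgeR FDR = 0.0926). For each of these genes the groups overlapped.

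The nuclear genes of the respiratory chain itself were not called by edgeR. Of 58 tested genes, the subunits of complexes I to IV and ATP synthase and the electron carrier CYCS, 55 had a positive log2 fold change with RIN and breed adjusted, with a median of 0.22, and none passed FDR 0.1. In edgeR 17 of them had an unadjusted p under 0.05 in this direction and 1 in the other, beside 7.89% and 7.78% of all genes. DESeq2 called 3 of the 58, CYCS, NDUFA4 and UQCRFS1, all higher, beside 2.48% of all genes, and limma with voom called none. Without CYCS 54 of 57 were positive with a median of 0.22. By complex the medians were 0.19 (25 genes of complex I), 0.31 (10 genes of complexes II and III), 0.24 (13 genes of the complex IV list, or 0.22 for the 12 without CYCS) and 0.28 (10 genes of ATP synthase), beside 0.01 over all genes. The summed level of these genes was 5660 to 11023 CPM (median 8239) in the high-share pigs and 4107 to 7400 CPM (median 5573) in the low-share pigs. COX4I1, a complex IV subunit, stood at 234 to 945 CPM (median 471) against 176 to 358 CPM (median 253), but its adjusted log2 fold change was 0.28 ± 0.18 (edgeR FDR = 0.458). NDUFA4, a small subunit of complex IV, stood at 267 to 516 CPM against 182 to 294 CPM (0.52 ± 0.16, edgeR FDR = 0.134), and CYCS, the electron carrier cytochrome c, at 131 to 213 CPM against 77.9 to 159 CPM (0.56 ± 0.16, edgeR FDR = 0.12).

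These genes moved with RIN as well. When RIN was left out of the model, 51 of the 58 were called, all higher, with a median of 0.57, beside 3488 calls among all genes (31.7%), of which 1940 were higher (17.7%) and 1548 lower (14.1%). As a term of its own in the 20 pigs, RIN had 36 of the 58 called lower per unit of RIN and 1 higher, where 19.7% of all genes were called lower and 20.1% higher. With the log2 ratio of mitochondrial to nuclear counts as a number in all 41 pigs and RIN and breed adjusted, 30 of the 58 were called higher and none lower, where 3.46% of all genes were called higher and 2.23% lower. Within batch 3 the median of the 58 was -0.07, with 15 positive values. Within batch 2 it was 0.41, and in the 21 pigs of neither group 0.28 per doubling of the ratio, each with 54 positive values. None of these 3 fits called any of the 58. Relative to these genes the mitochondrial mRNAs were still more abundant in the high-share pigs by the medians of a ratio. It divided the 6 genes per 1000000 counts without them, which was not TMM-scaled, by the summed TMM-scaled CPM of the nuclear genes. This ratio was 18.7 to 31.9 (median 21.9) against 12.3 to 18.6 (median 15.0). Each value is thus the ratio of counts times the TMM factor of that pig. The ranges and the gap between them therefore depend on the scaling. The ratio describes the ranked quantity and was not tested.

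Of the genes that act on mitochondrial DNA and its transcripts, edgeR called MTRES1. TFAM, which packages mitochondrial DNA and starts its transcription, stood at 15.2 to 24.8 CPM against 17.3 to 23.9 CPM (log2 fold change 0.13 ± 0.11, edgeR FDR = 0.611). POLRMT, the mitochondrial RNA polymerase, stood at 8.67 to 16.6 CPM against 14.2 to 19.4 CPM (-0.10 ± 0.12, edgeR FDR = 0.742). LRPPRC, which with SLIRP stabilises mitochondrial mRNAs, stood at 30.2 to 69.7 CPM against 39.1 to 56.2 CPM (0.31 ± 0.13, edgeR FDR = 0.254), and SLIRP at 5.00 to 13.6 CPM against 4.95 to 9.14 CPM (-0.07 ± 0.18, edgeR FDR = 0.89). Of the 15 genes for mitochondrial DNA and transcription none was called by edgeR, DESeq2 or limma with voom, and none had an unadjusted edgeR p under 0.05. With the ratio as a number in 41 pigs edgeR called 1 of the 15 lower, where 2.23% of all genes were called lower. Of the 27 genes for RNA processing and stability edgeR called 1, DESeq2 3 and voom 2, all higher, where they called 0.601%, 2.48% and 0.728% of all genes higher. The medians of these lists were 0.05 and 0.14. PNPT1, a mitochondrial RNA-degrading enzyme, had 0.39 ± 0.11 (edgeR FDR = 0.12), GRSF1, an RNA granule protein, 0.24 ± 0.11 (edgeR FDR = 0.292) and FASTKD1 0.15 ± 0.15 (edgeR FDR = 0.674).

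The master regulators of mitochondrial number were not called by edgeR. PPARGC1A, the PGC-1 alpha coactivator, ranged from 10.9 to 108 CPM in the high-share pigs and from 13.3 to 67.3 CPM in the low-share pigs (0.58 ± 0.37, edgeR FDR = 0.475). ESRRB and PPARD, nuclear receptors that act with it, had 0.87 ± 0.40 (edgeR FDR = 0.3) and -0.57 ± 0.26 (edgeR FDR = 0.286), and none of the 23 biogenesis regulators passed the threshold in edgeR, DESeq2 or voom, with an unadjusted edgeR p under 0.05 for 3 on the higher and 2 on the lower side. CS, the citrate synthase often taken as a gauge of mitochondrial content, stood at 312 to 439 CPM (median 408) against 235 to 347 CPM (median 298), with a log2 fold change of 0.32 ± 0.11 (edgeR FDR = 0.159).

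Other mitochondrial lists had positive medians, which depended in part on RIN. Of 58 mitochondrial ribosomal proteins edgeR called none (median 0.13, 49 positive, 6 with an unadjusted p under 0.05 on the higher side, beside 7.89% of all genes), DESeq2 3 (2.48% of all genes) and voom 2 (0.728%), all higher, where MRPL37 and MRPL48 had the smallest p with 0.51 ± 0.14 (edgeR FDR = 0.102) and 0.37 ± 0.10 (edgeR FDR = 0.105). Without RIN 37 of the 58 were called higher (median 0.35), where 17.7% of all genes were, the RIN term called 31 of them lower and 5 higher, where 19.7% and 20.1% of all genes were, and in the 21 pigs of neither group the median turned to -0.04. Of 31 mitochondrial translation factors and tRNA synthetases (median 0.07), 17 genes of fission, fusion and removal (median 0.23) and 13 chaperones and proteases (median 0.18) edgeR and voom called none, with 1, 4 and 3 genes at an unadjusted edgeR p under 0.05, and DESeq2 called 1 gene of fission, fusion and removal. Each of the lists of 30 assembly factors (median 0.13), 24 import proteins (median 0.14), 19 citric acid cycle genes (median 0.26) and 20 antioxidant enzymes (median 0.10) held 1 edgeR call, all higher and named above, where 0.601% of all genes were called higher. DESeq2 called 3 higher in each of these 4 lists and 1 antioxidant enzyme lower (2.48% and 3.17% of all genes), and with batch added edgeR called none. Without RIN edgeR called 10 assembly factors and 14 import proteins higher, where 17.7% of all genes were called higher. The neighbours of the calls in these lists were close to the threshold: SUCLA2, the ATP-forming partner of SUCLG2, had 0.51 ± 0.14 (edgeR FDR = 0.105), TOMM20, an import receptor, 0.43 ± 0.13 (edgeR FDR = 0.12) and SOD2, the matrix superoxide dismutase, 0.54 ± 0.16 (edgeR FDR = 0.123). Abundant members of these lists were not called by edgeR, with MDH2 at 0.31 ± 0.13 (edgeR FDR = 0.24), PRDX2 at 0.25 ± 0.16 (edgeR FDR = 0.457) and OXA1L at 0.15 ± 0.09 (edgeR FDR = 0.449). The summed level of 21 fatty acid oxidation genes was not higher in the high-share pigs by its median. It ran from 2226 to 4521 CPM (median 3284.5) against 1972 to 4428 CPM (median 3389.7). With RIN and breed adjusted 19 of the 21 genes were positive with a median of 0.33. Of these edgeR and voom called none (10 at an unadjusted edgeR p under 0.05), DESeq2 called 1 higher, and 4 were called higher with the ratio as a number in 41 pigs, where 3.46% of all genes were. DECR1, an auxiliary enzyme of the pathway, had the smallest p with 0.59 ± 0.20 (edgeR FDR = 0.153).

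Fibre type genes leaned to the slow side without passing the test. All 9 slow-fibre contractile genes tested had a positive log2 fold change, with a median of 0.83, the highest of the 31 lists, and none was called by edgeR, DESeq2 or voom while 6 had an unadjusted edgeR p under 0.05. Called higher were 6 of the 9 without RIN, where 17.7% of all genes were, and 4 with the ratio as a number in all 41 pigs and RIN and breed adjusted (median 0.72), where 3.46% of all genes were. TNNT1, the slow troponin T, stood at 1318 to 4507 CPM (median 2049) against 341 to 1666 CPM (median 1256), with a log2 fold change of 0.95 ± 0.34 (edgeR FDR = 0.181). MYL2, the slow regulatory light chain, stood at 1867 to 6608 CPM against 547 to 2983 CPM (0.85 ± 0.33, edgeR FDR = 0.216), and MYH7B at 15.6 to 56.2 CPM against 5.32 to 33.0 CPM (0.98 ± 0.36, edgeR FDR = 0.184). The list kept its sign within batches 2 and 3 (1.09 and 0.74), in the Landrace pigs alone (1.10) and without RIN (1.03). The 10 fast-fibre genes had a median of -0.01, and TNNT3 and TNNC2, the fast troponins, had -0.02 ± 0.21 (edgeR FDR = 0.976) and 0.01 ± 0.21 (edgeR FDR = 0.99). Among 17 glycolytic genes edgeR called 1, PFKP, the platelet isoform of phosphofructokinase, at 2.69 to 5.85 CPM against 3.97 to 7.11 CPM (-0.73 ± 0.17, edgeR FDR = 0.0765), where 0.901% of all genes were called lower, and HK1 had -0.66 ± 0.19 (edgeR FDR = 0.11). The muscle glycolytic genes ALDOA and GAPDH had -0.02 ± 0.23 (edgeR FDR = 0.976) and 0.07 ± 0.23 (edgeR FDR = 0.915).

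**Figure D4:**
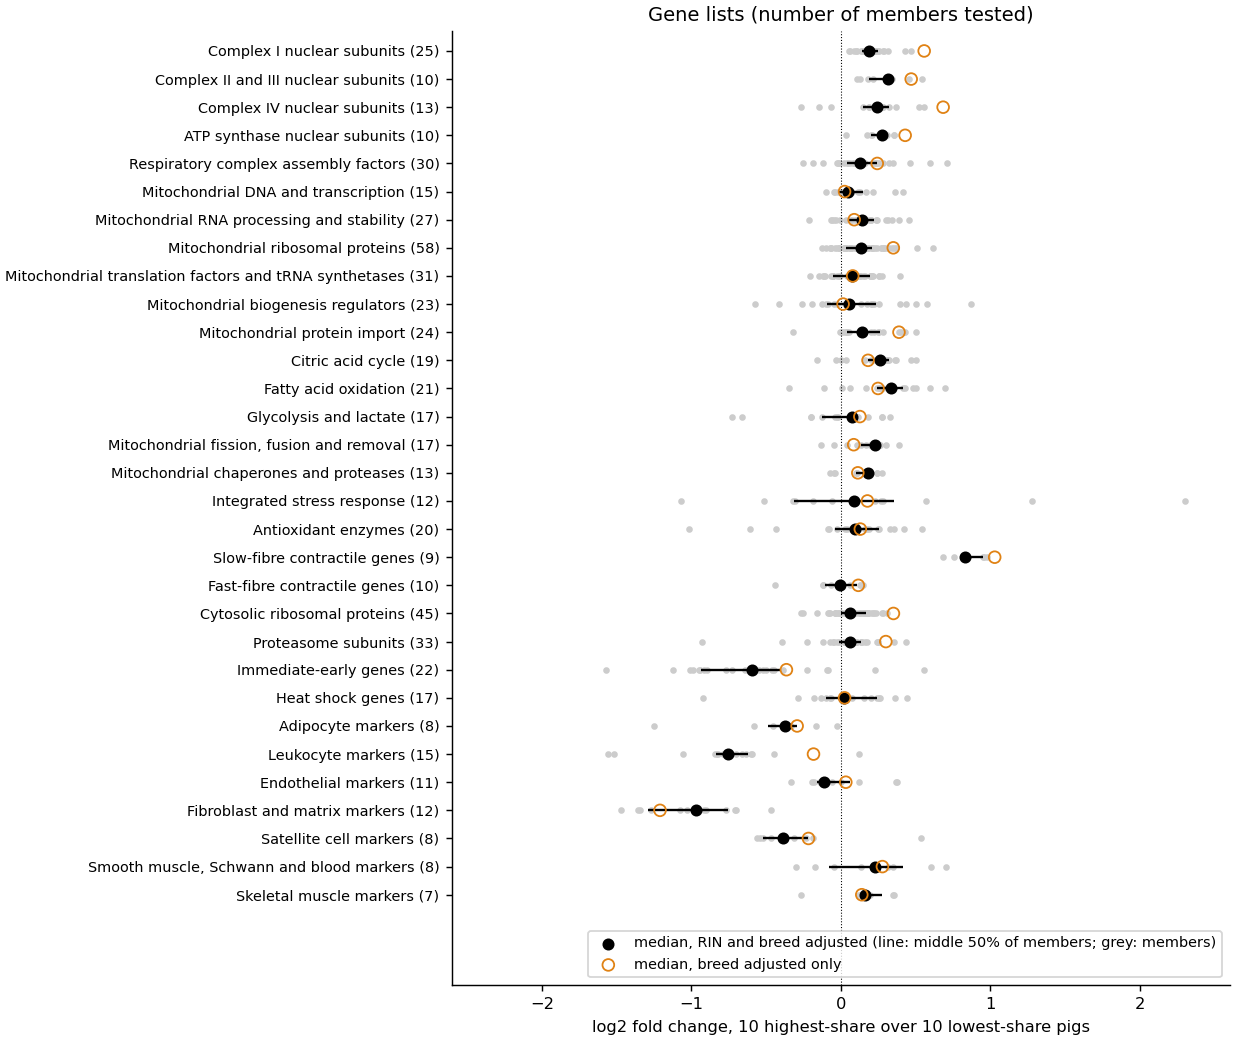
Log2 fold change of the 10 highest-share over the 10 lowest-share pigs for the members of 31 gene lists, with the number of members tested. Grey points are genes, black points the list medians with RIN and breed adjusted (line: middle 50% of the members) and open circles the medians with breed only; the respiratory chain lists move from medians of 0.19 to 0.31 up to 0.43 to 0.68 without RIN, and the leukocyte list from -0.76 to -0.18.

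Immediate-early genes, which respond within minutes to stress and handling, were mostly on the lower side: 20 of 22 had a negative log2 fold change, the median was -0.59 and 1 gene, IER2, was called, where 0.901% of all genes were called lower. With batch added the median was -0.30 and no member was called by edgeR (IER2 at FDR = 0.368), within batch 2 it was -0.14, and with the ratio as a number in 41 pigs -0.33. IER2 stood at 1.41 to 2.93 CPM against 2.08 to 5.95 CPM (-0.94 ± 0.25, edgeR FDR = 0.0926). EGR1 ranged from 4.47 to 57.1 CPM against 7.89 to 77.0 CPM (-1.57 ± 0.60, edgeR FDR = 0.212) and JUN from 169 to 609 CPM against 213 to 443 CPM (-0.45 ± 0.24, edgeR FDR = 0.368). Of 17 heat shock genes (median 0.02), 12 genes of the integrated stress response (median 0.09), 45 cytosolic ribosomal proteins (median 0.06) and 33 proteasome subunits (median 0.06) edgeR and voom called none, with 2, 3, 1 and 2 members at an unadjusted edgeR p under 0.05. DESeq2 called 1 heat shock gene lower, and 1 stress response gene and 1 proteasome subunit higher. The ribosomal and proteasome lists had medians of 0.35 and 0.30 without RIN, with 29 and 18 members then called higher, where 17.7% of all genes were.

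Among markers of other cells, edgeR and voom called none of the 8 adipocyte, 11 endothelial, 8 satellite cell and 8 smooth muscle, Schwann and blood markers tested, and none of the 7 skeletal muscle markers. At an unadjusted edgeR p under 0.05 were 1, 0, 1, 1 and 1 of them, and DESeq2 called 1 adipocyte marker lower and 1 marker each of the last 2 lists higher. Their medians were -0.37, -0.11, -0.39, 0.23 and 0.16. The first 3 had no stable direction: in Landrace alone they were 0.02, 0.28 and 0.05, within batch 3 they were 0.07, 0.20 and 0.12, and the adipocyte median was 0.12 with the ratio as a number in 41 pigs. The adipocyte list ranged from 329 to 911 CPM in sum in the high-share pigs and from 379.8 to 820.1 CPM in the low-share pigs. LIPE, the hormone-sensitive lipase, was the adipocyte gene of smallest p (-1.25 ± 0.35, edgeR FDR = 0.105), and FABP4 had -0.58 ± 0.32 (edgeR FDR = 0.381). DES, which muscle fibres express as well as smooth muscle, stood at 6462 to 10042 CPM against 4667 to 6666 CPM (0.35 ± 0.14, edgeR FDR = 0.219), and HBB, the beta chain of haemoglobin and a sign of blood, at 13.2 to 326 CPM against 22.3 to 84.8 CPM (0.70 ± 0.52, edgeR FDR = 0.537).

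The 165 calls were then looked up in pigs that had not entered the comparison. In the 21 pigs between the groups, whose shares ran from 9.28% to 12.2%, the log2 ratio of mitochondrial to nuclear counts was fitted as a number with RIN and breed. No gene was called by edgeR (260 of 11004 had an unadjusted p under 0.05), and limma with voom called none either (250 under 0.05). Of the 66 higher genes 46 had the same sign there (69.7%) and of the 99 lower genes 67 of the 97 that could be measured (69.1%), where 52.4% of all genes kept their sign. In these pigs 1 of the 66 and none of the 97 had an unadjusted p under 0.05 in the same direction. PRDX3 was at 0.46 per doubling of the ratio (unadjusted p = 0.0644 in the edgeR fit), MYD88 at -0.52 (p = 0.473 in the same edgeR fit) and CCNB1IP1 at 0.10 (p = 0.726 in the same edgeR fit). F13A1 was at -2.07 (p = 0.123 in the same edgeR fit) and NFKBIZ at -1.52 (p = 0.246 in the same edgeR fit). The narrow range of shares limits what these pigs can show.

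Within the comparison itself, the 3 against 3 pigs of batch 3 gave the same sign for all 66 higher and all 95 measured lower genes, and the 2 against 6 pigs of batch 2 for 65 of 66 and 87 of 99. These pigs are part of the 20 from which the calls were made, so such signs are no independent evidence, and 72.5% and 69.5% of all genes kept their sign in batches 3 and 2. Alone, batch 3 gave 0 calls by edgeR (375 genes with an unadjusted p under 0.05) and batch 2 gave 25, of which 24 were lower. Whether the relation with the share differs between the breeds was tested in all 41 pigs by the product of breed and log2 ratio. No gene was called by edgeR (615 of 11142 with an unadjusted p under 0.05) or by limma with voom (578 under 0.05).

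**Figure D5:**
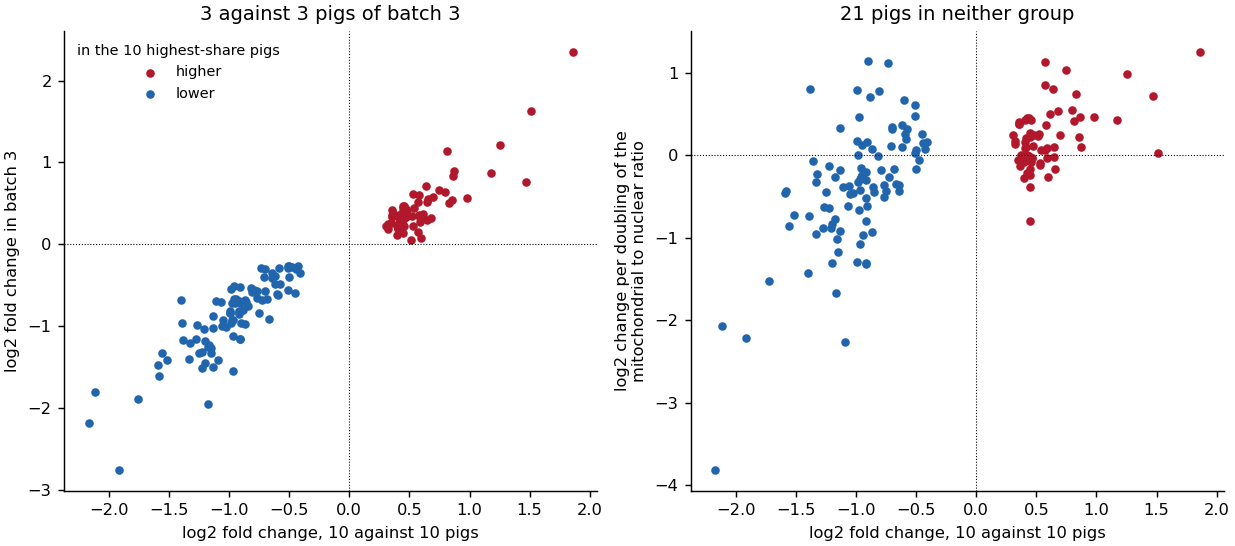
The 165 called genes with their log2 fold change between the 10 highest-share and the 10 lowest-share pigs on the horizontal axis (red higher, blue lower). The vertical axis is, left, the log2 fold change in the 6 pigs of batch 3, which belong to the same 20 (72.5% of all genes keep their sign there), and, right, the log2 change per doubling of the mitochondrial to nuclear ratio in the 21 pigs of neither group; all 161 genes measured in batch 3 keep their sign, and 113 of 163 do in the other pigs.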

How the data were processed

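The deposited files hold, per the labels and the methods of the study, counts of read pairs per Ensembl gene, without normalization or filter. The authors trimmed 100 bp unstranded mRNA read pairs with Trimmomatic 0.39, aligned them to Sus scrofa 11.1 with STAR 2.7.1a and let STAR count pairs that fell on a single gene of the Ensembl annotation. The unstranded column was used here, so overlapping and antisense genes cannot be told apart, and pairs on overlapping mitochondrial genes or on nuclear copies of mitochondrial DNA may be missing. All 41 libraries were used, and the 820 pairs of libraries all differed beyond counting noise (lowest chi-squared per degree of freedom 16.0).

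Gene symbols came from a table of Ensembl identifiers, and coordinates were matched by symbol to RefSeq genes of Sscrofa11.1. Library sizes were the counts without the 6 genes, and the 37 identifiers of the mitochondrial run (13 named protein genes and 24 without a symbol) were left out of the genes tested. Nuclear genes were filtered by filterByExpr (minimum count 10) and fitted in edgeR 4.0.16 (TMM scaling, quasi-likelihood F-test, legacy dispersion setting), with RIN, breed and group as terms. FDR values are Benjamini-Hochberg values over all genes tested with a threshold of 0.1. DESeq2 1.42.0, limma 3.58.1 with voom, other filters, scalings, covariates, rankings and group sizes, and leaving out each pig were alternatives. Labels were tested with 100000 permutations (SciPy 1.17.1). Steps were tested on simulated data.

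Genes named are the 12 of smallest p in each direction with a symbol, in each of 31 lists the 2 tested members of smallest p and the 2 most abundant, the 13 mitochondrial genes, TFAM, POLRMT, LRPPRC, SLIRP, PPARGC1A and CS, and a few picked later, as stated. The pigs, lists and tests were chosen with earlier results of these data known. Of the 165 called genes 19 have no symbol. Some genes under this rule are not reported here.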

Additional observations from a re-analysis of the deposited data

Results flagged for a closer look

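Of 348 comparisons of a quantity within a group of 10 pigs, 22 (6.32%) had a lowest or highest pig that stood apart by Dixon's criterion (CPM on the log2 scale), in 9 pigs. Chance gives about 1 in 20. The causes were not tested.

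Landrace 8, a high-share pig, had the lowest glycolytic and fast-fibre levels of its group. Its summed glycolytic CPM was 65639 (next pig 125643), its fast-fibre sum 34978 (next 58103), ALDOA 22092 CPM (next 38704) and GAPDH 23358 CPM (next 42688). Landrace 21, a high-share pig, was lowest for leukocyte markers, with a sum of 21.7 CPM (next 45.2), CD163 at 2.57 CPM (next 6.28) and CSF1R at 1.40 CPM (next 4.05). Landrace 22, a high-share pig, was highest for matrix markers, with a sum of 13998 CPM (next 2745) and COL1A1 at 10488 CPM (next 742), and lowest for the respiratory chain subunits ATP5F1A at 320.1 CPM (next 462) and NDUFB5 at 24.7 CPM (next 38.9). Landrace 18, a high-share pig, had ATP5F1D, a subunit of ATP synthase, at 207 CPM (next 284) and PHGDH, the first enzyme of serine synthesis, at 19.7 CPM (next 1.49). Duroc 2, a high-share pig, had the proteasome subunit PSMD14 at 31.9 CPM (next 23.8).

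Among the low-share pigs, Duroc 8 was lowest for ALDOA at 29359 CPM (next 39815), for MYOZ1, a Z-disc protein of fast fibres, at 2112 CPM (next 2774) and for the import receptor subunit TOMM22 at 44.2 CPM (next 54.8). Landrace 10 was lowest for TNNT1 at 341 CPM (next 772) and for the assembly factor ECSIT at 55.3 CPM (next 71.9). Duroc 9 had the highest RIN, 8.8 (next 8.3), and the highest PPARGC1A, 67.3 CPM (next 22.8). Duroc 1 was lowest for PSMD5, a proteasome assembly chaperone, at 7.14 CPM (next 12.2).

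Outside the genes compared, the 24 identifiers without a symbol in the mitochondrial run took a median of 1.24% of the counts over the 41 pigs, nearly all on ENSSSCG00000018063.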

How the results depend on the processing

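The called genes mostly kept their sign in the alternative fits. Most of these fits reuse pigs from which the calls were made, so the kept signs are no independent evidence. In the 21 pigs of neither group 113 of 163 kept their sign, where 52.4% of all genes did. The count of nuclear genes called, 165, depended on the processing. It was 620 with DESeq2, 38 with library size alone (1 higher, 37 lower), 48 without a filter, 3488 without RIN, 10 with batch added, 0 with FCR, age and batch added (1025 genes with an unadjusted edgeR p under 0.05), 352 when pigs were ranked by 13 genes, 5 when ranked by the adjusted share, 0 with 7 against 7 pigs (1358 under 0.05), 91 with 13 against 13, 635 with the share as a number (386 higher, 249 lower), 46 in Landrace alone, 29 without pigs of RIN below 7 and 5 at FDR 0.05. Chosen after seeing the data were the fits without the 2 pigs above 20% (252), with RIN from 7.7 (79), in batch 2 (25) and in batch 3 (0, with 375 under 0.05), and with the share of pairs on no gene added (146).

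Leaving out 1 pig gave 3 to 335 calls. Of the 20 counts 13 were more than 1.5 times lower: 3 without Landrace 6, 34 without Duroc 2, 38 without Landrace 1 or Landrace 14, 40 without Landrace 13, 45 without Landrace 12, 47 without Landrace 2, 49 without Duroc 1, 55 without Landrace 3, 61 without Landrace 10, 65 without Landrace 21, 100 without Duroc 9 and 109 without Duroc 13. They were 275 without Landrace 22 and 335 without Duroc 8. The cause was not tested.

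Of 1259 alternative values of the 30 named genes called, 829 kept the call and 428 lost it. CD163 (0.17) and IRF5 (0.092) reversed in batch 2, and without RIN so did MRPL12 (0.71), RNASEH1 (0.26) and TNNT3 (0.48). The breed difference in share was 1.92 percentage points with RIN regressed out. Of 1240 list medians 56 moved by more than the median standard error of the list members in the main fit. No paired analysis was possible because the labels give the pigs no replicate numbers.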

Other observations

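Further genes called between the groups, picked from the calls after their values were seen, are given by their log2 fold change of high-share over low-share pigs, with RIN and breed adjusted. SERPING1, the C1 inhibitor, stood at 43.5 to 113 CPM against 84.8 to 207 CPM (-0.99 ± 0.23, edgeR FDR = 0.0785), C4BPA, which binds C4b, at 6.59 to 21.5 CPM against 17.6 to 53.5 CPM (-1.13 ± 0.26, edgeR FDR = 0.0757), and CLU, or clusterin, at 16.1 to 54.0 CPM against 25.2 to 49.8 CPM (-0.86 ± 0.21, edgeR FDR = 0.0842). In batch 2 alone C4BPA was at 0.25, so its direction turned there.

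STAT3, the transcription factor of interleukin-6 signalling, stood at 15.3 to 42.7 CPM against 50.1 to 96.5 CPM without overlap (-0.68 ± 0.18, edgeR FDR = 0.0917). FOXO3, which drives atrophy genes, stood at 52.2 to 91.6 CPM against 84.4 to 183 CPM (-0.81 ± 0.20, edgeR FDR = 0.0842) and was at 0.06 in batch 2 alone. ULK1, a kinase that starts autophagy, stood at 123 to 250.4 CPM against 188 to 362 CPM (-0.70 ± 0.17, edgeR FDR = 0.0908). IGF2R, the receptor that clears IGF2, stood at 42.4 to 60.9 CPM against 67.1 to 97.6 CPM without overlap (-0.51 ± 0.12, edgeR FDR = 0.0737). Among the higher genes, AQP4, the water channel of fast fibres, stood at 7.90 to 51.7 CPM against 13.9 to 45.3 CPM (1.17 ± 0.31, edgeR FDR = 0.0926).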
